A study of Homo sapiens with 42 samples.

Results

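HIF-1α R30E is a form of hypoxia-inducible factor 1α in which a substitution in the DNA-binding surface impairs DNA binding, while the domains that pair with HIF-1β carry no mutation. 3 RNA-seq libraries of 786-O cells that overexpressed HIF-1α R30E were compared with 3 libraries of WT 786-O cells. The 6 libraries were every library that the labels gave as HIF-1α R30E or as WT in batch 1, the set of 27 libraries in 9 groups that was prepared with 1 chemistry. The whole series holds 42 libraries, of which 15 belong to batch 2.

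786-O is a human clear cell renal cell carcinoma line without functional VHL, so its HIF-2α is stable in normal oxygen, and it makes no functional HIF-1α of its own. WT cells carried no vector. The HIF-1α R30E line carried a stably integrated transgene under the L30 promoter, with a V5 and HaloTag fusion ahead of the HIF-1α R30E coding sequence, and was kept under puromycin selection. No cloning step is given for the line, and expression was described as uneven from cell to cell. Since WT cells had neither vector nor selection, the mutant protein and the vector with its selection cannot be told apart in the comparison with WT. 3 further batch 1 lines with the same vector and selection were therefore used as a second reference: HIF-1αDM and HIF-2αDM, whose dimerization surface is mutated, and HIF-2α R27E, the DNA-binding mutant of HIF-2α. Lines with functional HIF-1α or HIF-2α in the same vector served as the third. Each of these groups had 3 libraries of its own stable line. The transgene and other differences between the lines therefore cannot be told apart in these comparisons. One label field of the HIF-2αDM libraries names HIF-1α, but EPAS1, the gene of HIF-2α, had a mean of 48666 normalized counts there and HIF1A a mean of 193. The study's methods name 3 biological replicates per sample, but neither they nor the labels say that these came from separate cultures. The p-values therefore measure the spread between these libraries.

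HIF-α subunits pair with HIF-1β, encoded by ARNT, through PAS domains, and the pair binds the letters ACGTG or GCGTG in hypoxia response elements through basic helix-loop-helix domains. VHL normally marks hydroxylated HIF-α for destruction. Known targets of the pair include the glycolytic enzymes, VEGFA for vessel growth, CA9 and CA12 for pH control, and EGLN3, a hydroxylase that acts on HIF-α itself. In clear cell renal carcinoma the loss of VHL leaves this program running without hypoxia.

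The WT libraries held 66420117 to 101186554 assigned reads and the HIF-1α R30E libraries 49650532 to 81013481. Values are given as normalized counts, reads divided by the library's size relative to the mean library after TMM scaling. Rank correlation between libraries over tested genes was at least 0.967 within WT, at least 0.964 within HIF-1α R30E and between 0.954 and 0.968 across the groups. Mitochondrial transcripts took 0.0943% to 0.214% of reads in WT and 0.104% to 0.340% in HIF-1α R30E. Of 14 markers of clear cell renal carcinoma and proximal tubule, 12 were expressed enough to be tested, and LRP2 and SLC22A6 had no read in any of the 6 libraries. Of the 12, 2 were called higher and 1 lower, beside 2.04% and 0.572% of all tested genes. ANGPTL4 was among the higher and NDUFA4L2 was the lower one, and both are also in the list of HIF targets below. The summed level of the markers was 103128 to 137873 normalized counts in WT and 95574 to 134685 in HIF-1α R30E. Leukocyte markers, of which 2 of 8 could be tested, summed to 7.43 to 18.4 in WT and 14.8 to 41.0 in HIF-1α R30E, with CD3E, LYZ and HBA1 among those at 0. Endothelial markers, 5 of 6 tested, summed to 24.2 to 28.1 and 6.75 to 53.8, and fibroblast markers, 5 of 8 tested, to 867 to 1302 and 964 to 1662, with PDGFRA and DCN at 0. No leukocyte, endothelial or fibroblast marker was called.

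The transgene was read first. HIF1A (ENSG00000100644.17, chr14:61695513-61748259, plus strand, hg38) stood at 238, 231 and 257 normalized counts in WT and at 2366, 2803 and 2367 in HIF-1α R30E. The groups did not overlap, and the log2 difference was 3.37 ± 0.25 (SE; adjusted p = 7.7e-10, edgeR quasi-likelihood test with Benjamini-Hochberg adjustment). Reads of the transgene and of the endogenous gene fall on the same coding sequence and were counted together. The HIF-1αDM line reached 2017 to 2583 and the line with functional HIF-1α 2786 to 3245. Neither difference from HIF-1α R30E was called (log2 0.16 against HIF-1αDM and -0.27 against HIF-1α). EPAS1 had 12562, 14334 and 16596 normalized counts in WT and 8033, 10404 and 12528 in HIF-1α R30E, so the highest mutant library was just under the lowest WT library, and no call was made (log2 -0.49 ± 0.20, adjusted p = 0.18). ARNT, the shared partner, was at 1481 to 1768 in WT and 827 to 1471 in HIF-1α R30E (log2 -0.54 ± 0.24, adjusted p = 0.24) and was not called either.

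Of 23410 tested genes, 477 were higher in HIF-1α R30E than in WT and 134 were lower, which is 2.04% and 0.572% of those tested. A gene was called when its adjusted p in edgeR's quasi-likelihood test was at most 0.01 and its change at least 2-fold. The HIF-1α R30E and WT libraries did not overlap in all 477 and all 134 called genes, and in 4734 of all 23410 tested genes. Among genes called higher, 254 changed at least 4-fold, and among genes called lower, 41 did. Protein-coding genes made up 96.2% of the genes called higher, 88.8% of those called lower and 63.7% of all tested genes. A WT mean under 10 normalized counts was seen for 95 of the 477 higher genes (19.9%), beside 34.9% of all tested genes, and the fitted fold changes of these 95 depend on the few WT reads. The median log2 change of all tested genes was -0.04. In HIF-1αDM, HIF-2α R27E and HIF-2αDM, against the same WT libraries, the 477 genes had median log2 changes of 1.13, 1.17 and 1.14. Their median in HIF-1α R30E, on whose values they were chosen, was 2.15. For the 134 lower genes the medians were -0.55, -0.64 and -0.58 in those lines and -1.56 in HIF-1α R30E. The scatter of change against level shows the 2 sets.

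**Figure D1:**
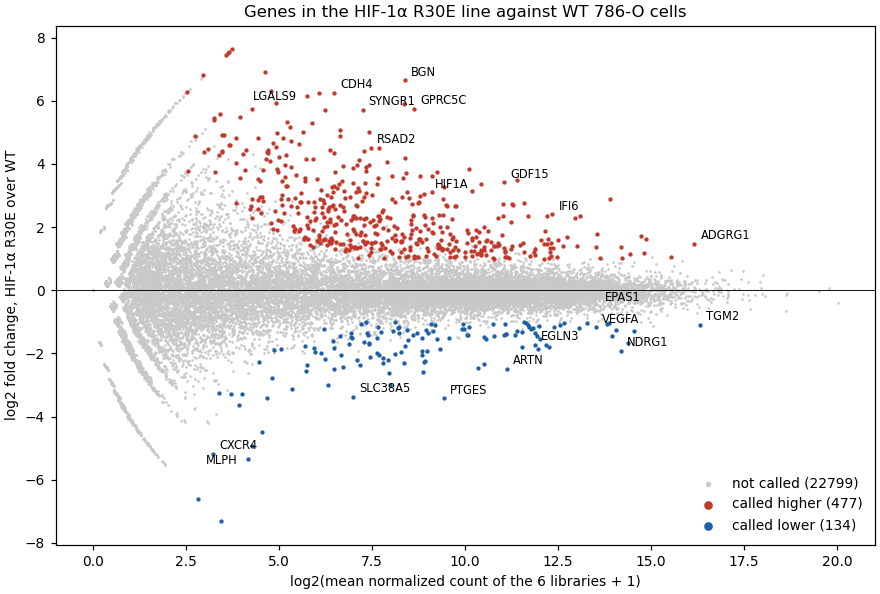
Log2 fold change of HIF-1α R30E over WT (vertical axis) against log2 of the mean normalized count of the 6 libraries plus 1 (horizontal axis), 1 point per tested gene. The 477 genes called higher are red, the 134 called lower blue and the rest grey; red points reach 7.63 and blue points -7.31 on the log2 scale, and HIF1A lies among the red points at 3.37.

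The 12 largest increases among genes averaging 50 or more normalized counts were in genes of varied function with few reads in WT. BGN, the small leucine-rich proteoglycan biglycan, had 7.43, 4.84 and 7.03 normalized counts in WT and 552, 506 and 922 in HIF-1α R30E (log2 6.64 ± 0.53). CDH4, which encodes R-cadherin, went from 1.94 to 2.48 in WT to 141 to 202 in HIF-1α R30E (log2 6.24 ± 0.74). Neither gene had a WT library near the mutant ones. LGALS9, the galactoside-binding lectin galectin-9, had at most 1.65 in WT and 57.3 to 151 in HIF-1α R30E. KIF26A, a kinesin family member, had at most 2.11 in WT and 89.4 to 189 in HIF-1α R30E. The synaptic vesicle protein gene SYNGR1 stood at 4.22 to 6.61 in WT and 273 to 322 in HIF-1α R30E. NKX2-5, a homeobox transcription factor best known in heart, had 0.968 to 3.51 in WT and 53.2 to 204 in HIF-1α R30E. ADAMTS7, a secreted metalloprotease, rose from 6.77 to 14.9 to 213 to 420, and SULF2, which removes sulfate groups from heparan sulfate, from 0.968 to 9.08 to 111 to 241. GPRC5C, an orphan receptor, rose from 6.61 to 23.9 in WT to 541 to 1001 in HIF-1α R30E. ELFN1, CERS4 (a ceramide synthase) and NAT8L (which makes N-acetylaspartate) completed the 12 largest changes, at log2 5.90, 5.30 and 4.89. Some of these genes overlapped HIF-1α R30E in the libraries of HIF-1αDM, HIF-2α R27E and HIF-2αDM. GPRC5C was at 163 to 1707 there, ADAMTS7 at 85.7 to 267 and NKX2-5 at 52.9 to 169. BGN and CDH4 stayed below HIF-1α R30E, at 21.9 to 58.6 and 0 to 57.3.

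Among well-expressed genes, ADGRG1, an adhesion G protein-coupled receptor, had the highest level of any gene called higher, with 33648 to 46078 normalized counts in WT and 94393 to 128582 in HIF-1α R30E (log2 1.48 ± 0.19). CDKN1A, the cyclin-dependent kinase inhibitor p21, was at 10402 to 10496 in WT and 25024 to 30408 in HIF-1α R30E (log2 1.38 ± 0.18). COL6A1, a collagen VI chain, was at 9204 to 15822 and 32507 to 50989 (log2 1.71 ± 0.26). The tubule basement membrane protein gene TINAGL1 was at 12944 to 14201 and 27377 to 35527 (log2 1.16 ± 0.19). These 4 genes were named only if their groups did not overlap, so that separation is no added support. In HIF-1αDM, HIF-2α R27E and HIF-2αDM every library was also above the highest WT library in these genes. The ranges over those libraries were 51178 to 75939, 18584 to 38011, 18473 to 40405 and 15091 to 24408, in the order named.

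Among genes averaging 50 or more normalized counts, the largest decreases were also in genes of varied function. PTGES, which makes prostaglandin E2, fell from 1333, 1154 and 1321 normalized counts in WT to 108, 119 and 127 in HIF-1α R30E (log2 -3.42 ± 0.32, adjusted p = 4.0e-08). SLC38A5, an amino acid transporter, stood at 225 to 240 in WT and 10.8 to 30.7 in HIF-1α R30E (log2 -3.38 ± 0.39). FAM83F was at 108 to 171 and 12.8 to 22.9, and SLN, the calcium pump regulator sarcolipin, at 368 to 600 and 34.1 to 77.3. The neurotrophic ligand gene ARTN, artemin, went from 3363 to 4169 in WT to 578 to 837 in HIF-1α R30E (log2 -2.48 ± 0.28). SLITRK2, a neuronal membrane protein gene, went from 716 to 954 to 98.5 to 169, and PLEKHG4B, a guanine nucleotide exchange factor gene, from 2184 to 2264 to 209 to 572. PAPPA2, a protease that cleaves IGF-binding proteins, was at 313 to 581 in WT and 22.9 to 118 in HIF-1α R30E. ANK3 (ankyrin-G) and the antisense transcript PRKAG2-AS1 had log2 changes of -2.51 and -2.44; the reads were counted without strand, so the antisense transcript cannot be told apart from a gene it overlaps. Among abundant genes called lower, LAMB3, a laminin-332 chain, was at 25730 to 41313 in WT and 10905 to 15679 in HIF-1α R30E (log2 -1.29 ± 0.23), and the actin-binding protein gene CALD1 at 21456 to 28209 and 8752 to 11855 (log2 -1.27 ± 0.21).

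Established HIF targets were lower more often than higher. Of 32 such genes outside glycolysis, 8 were called lower and 1 higher, against 0.572% and 2.04% of all tested genes, and 25 of 32 had a negative change. Their median log2 change was -0.56, beside -0.04 for all tested genes. The hydroxylase gene EGLN3 had 5308, 5493 and 6577 normalized counts in WT and 1613, 1501 and 2154 in HIF-1α R30E (log2 -1.72 ± 0.24, adjusted p = 2.0e-05). Every mutant library held less than the lowest WT library. NDRG1, a stress-responsive gene induced by hypoxia in many cells, was at 26438, 31864 and 29998 in WT and at 6626, 8493 and 8340 in HIF-1α R30E (log2 -1.91 ± 0.24, adjusted p = 3.5e-06). VEGFA, the vascular endothelial growth factor, was at 16330, 17259 and 15579 in WT and at 7469, 6414 and 7968 in HIF-1α R30E (log2 -1.17 ± 0.13, adjusted p = 7.8e-07). The groups were again apart in both genes, as in every called gene.

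DDIT4, an inhibitor of mTORC1 signalling, was at 26453, 26455 and 45612 normalized counts in WT and at 8785, 9346 and 12743 in HIF-1α R30E (log2 -1.67 ± 0.29). One WT library was far above the other two, and the mutant libraries were below all 3. STC2, the secreted glycoprotein stanniocalcin 2, was at 19739 to 25278 in WT and 6339 to 10039 in HIF-1α R30E (log2 -1.43 ± 0.24). CA12, a membrane carbonic anhydrase, was at 10001 to 13247 and 4117 to 6795 (log2 -1.20 ± 0.24, adjusted p = 0.0015). Its call was lost without WT replicate 1 (log2 -1.11), HIF-1α R30E replicate 1 (-1.05) or HIF-1α R30E replicate 3 (-1.13). NDUFA4L2, a mitochondrial complex subunit paralog that hypoxia induces, was at 142 to 148 and 30.1 to 71.7 (log2 -1.44 ± 0.31, adjusted p = 0.0034). That call held only without HIF-1α R30E replicate 3; without any one of the other 5 libraries (WT replicate 1, 2 or 3, HIF-1α R30E replicate 1 or 2) the log2 change was -1.42, -1.45, -1.44, -1.50 and -1.16 and the adjusted p above 0.01. The chemokine receptor gene CXCR4 had 60 reads over the WT libraries and 1 over the HIF-1α R30E libraries, a ratio of 47.6 with a counting interval of 8.22 to 1910 (95%, exact). Without WT replicate 2 or HIF-1α R30E replicate 1, 2 or 3 its call was lost, at log2 -5.09, -4.84, -4.72 and -7.05. ANGPTL4, a secreted regulator of lipoprotein lipase, was the one higher gene, at 91.9 to 112 normalized counts in WT and 248 to 521 in HIF-1α R30E (log2 1.90 ± 0.25). It was also above every WT library in HIF-1αDM, HIF-2α R27E and HIF-2αDM, at 163 to 361 over their libraries.

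The other members of the list changed less or varied more. ADM, the vasodilator adrenomedullin, and the MYC antagonist gene MXI1 passed the adjusted p but not the 2-fold limit, at log2 -0.95 and -0.70. CA9 (0.65), the mitophagy receptor gene BNIP3 (0.18), the prolyl hydroxylase gene P4HA1 (-0.08) and LOX (-0.27), which crosslinks collagen, had small or imprecise log2 changes and were not called. The glycolysis list showed the same sign with 1 call: 18 of 22 genes had a negative change, the median was -0.28, and only ENO2, the neuronal enolase, was called. ENO2 had 4109, 3980 and 3452 normalized counts in WT and 1348, 1685 and 1654 in HIF-1α R30E (log2 -1.30 ± 0.21, adjusted p = 0.00015). The glucose transporter gene SLC2A1 (log2 -0.56), LDHA (-0.41), PGK1 (-0.35) and PDK1 (-0.55) were not called. Among the HIF hydroxylases and the VHL complex, the 8 tested genes other than EGLN3 were not called, with EGLN1 at log2 0.41 and VHL at -0.20.

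**Figure D2:**
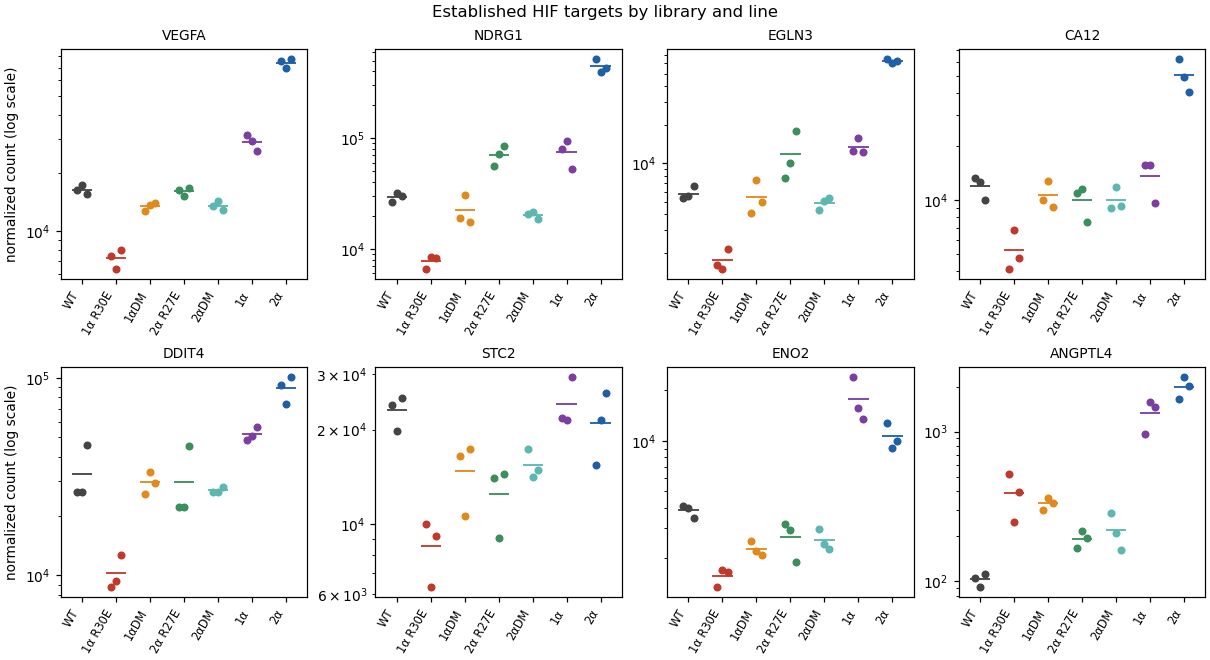
Normalized counts (log axis) of 8 HIF targets in 7 batch 1 lines, 1 point per library and a bar at each line's mean, with 1α and 2α standing for HIF-1α and HIF-2α. In VEGFA, NDRG1, EGLN3, CA12, DDIT4, STC2 and ENO2 the 3 points of 1α R30E lie below the 3 WT points, and in ANGPTL4 above them.

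The core letters of the hypoxia response element, ACGTG or GCGTG on either strand, were looked for in the RefSeq promoter windows (GRCh38.p14, 250 bases before to 50 after the annotated start), which were held for 12661 of the tested genes. They occurred in 60.5% of all these windows, in 50.9% of the windows of genes called higher (173 of 340), in 48.4% of those called lower (45 of 93) and in 82.6% of the windows of the HIF target list (19 of 23). Parts of 4 windows are shown because these genes carry the pattern above, 3 lower and 1 higher. Capitals mark the matched letters, read on either strand, and each sequence runs 5′ to 3′ along the gene.
ENO2 (chr12:6914442-6914486, plus strand): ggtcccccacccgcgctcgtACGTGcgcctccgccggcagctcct
STC2 (chr5:173328612-173328664, minus strand): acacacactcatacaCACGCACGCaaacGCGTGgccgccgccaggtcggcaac
CXCR4 (chr2:136118164-136118208, minus strand): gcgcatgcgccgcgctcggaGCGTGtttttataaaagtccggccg
ANGPTL4 (chr19:8363905-8363945, plus strand): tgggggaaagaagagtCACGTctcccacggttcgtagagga

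The windows of EGLN3 and BGN held no match. A match is a description of the window and does not show binding, and no match says only that the letters are not within these 300 bases.

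Interferon-stimulated genes were the list with the most calls. 14 of 32 tested genes were higher in HIF-1α R30E than in WT and none was lower, beside 2.04% and 0.572% of all tested genes, 28 of 32 had a positive change, and the median log2 change was 1.35. RSAD2, the antiviral enzyme viperin, had 9.91, 21.3 and 13.4 normalized counts in WT and 340, 288 and 379 in HIF-1α R30E (log2 4.50 ± 0.49, adjusted p = 7.3e-07). Its neighbour CMPK2, a mitochondrial nucleotide kinase gene, was at 15.5 to 29.5 and 203 to 418 (log2 3.95 ± 0.43). IFI6, a mitochondrial and reticulum protein gene, was at 1965, 1409 and 1578 in WT and at 10053, 5197 and 11076 in HIF-1α R30E (log2 2.41 ± 0.25, adjusted p = 1.7e-07). MX1, a dynamin-like GTPase that blocks viral entry and replication, was at 167, 191 and 213 in WT and at 1149, 571 and 1046 in HIF-1α R30E (log2 2.28 ± 0.26). The second mutant library was the lowest of the 3 in RSAD2, CMPK2, IFI6 and MX1, and it was still above every WT library.

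Active enzymes of the oligoadenylate synthetase family make the activator of RNase L. The family's genes moved together in part: OAS2 (log2 3.93 ± 0.68), OAS1 (2.35 ± 0.37) and OASL (2.71 ± 0.35) were called, and OAS3 was not (0.33). OASL was tight in the mutant line, at 1251, 1263 and 1251 against 177 to 210 in WT. MX2 (log2 3.12), IFI27 (2.67), HERC5 (2.18), the ligase that attaches ISG15 to proteins, and ISG15 itself (1.38) were also called. ISG15 was the most abundant, at 5346 to 8186 in WT and 10365 to 21937 in HIF-1α R30E. IFI44L (2.26), IFIT1 (1.64) and ISG20 (1.33) were called with all libraries and lost the call when a library was left out: IFI44L without WT replicate 1 (2.16) or 2 (2.15), IFIT1 without WT replicate 2 (1.61) or 3 (1.49) or HIF-1α R30E replicate 2 (1.46), and ISG20 without WT replicate 1 (1.33) or 2 (1.23) or HIF-1α R30E replicate 1 (1.07) or 3 (1.21). Among the factors that transmit the interferon signal, those not called included STAT2 (log2 -0.41), IRF9 (0.23), IRF7 (0.23) and IRF1 (-0.06). The RNA sensor genes DDX58 (0.26) and IFIH1 (-0.04) were not called either.

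The same genes were read in the other lines. 9 of the 32 genes were called higher than WT in HIF-1αDM, 9 in HIF-2α R27E, 7 in HIF-2αDM, 6 in the line of functional HIF-1α and 4 in that of HIF-2α. The shares of all tested genes called higher in these lines were 0.453%, 0.449%, 0.44%, 3.27% and 3.78%, so the lines of functional HIF had the higher background. The median log2 changes of the 32 genes were 0.97, 0.92, 0.75, 0.45 and 0.28 in that order. All these comparisons share the 3 WT libraries with the one of HIF-1α R30E. Against the mean of the other inactive mutants, where no WT library enters, 0 of 32 were called in either direction (median log2 0.38), beside 0.598% higher and 0.196% lower of all tested genes, although MX1 (log2 0.94, adjusted p = 0.0048) passed the adjusted p of edgeR's quasi-likelihood test. Over all tested genes 2228 had an unadjusted p under 0.05 in that contrast. Against HIF-1α, 7 were called higher in HIF-1α R30E, beside 0.329% of all tested genes: OAS1, IFI6, RSAD2, CMPK2, OASL, MX1 and IFI27. The plot by line shows the order.

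**Figure D3:**
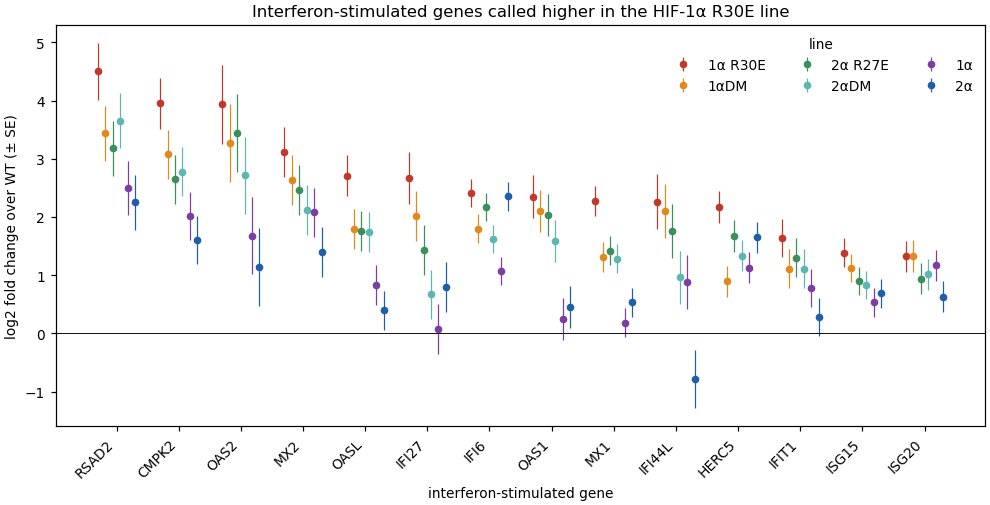
Log2 fold change over WT (vertical axis, bars are ± 1 SE of the edgeR fit) of the 14 interferon-stimulated genes called higher in HIF-1α R30E, for 6 lines compared with the same 3 WT libraries. 1α R30E (red) is at 4.50 for RSAD2 and at 1.33 for ISG20, and the lines of functional HIF-1α and HIF-2α lie lower in MX1 (0.18 and 0.53) and OAS1 (0.24 and 0.46). In IFI6 HIF-2α was level with 1α R30E, at 6408 to 11178 beside 5197 to 11076 normalized counts.

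The interferon-stimulated response element was searched as GAAA, any 2 bases and GAAA, on either strand, in the same promoter windows. It occurred in 2.96% of all windows, in 2.94% of the windows of all genes called higher, in 66.7% of the windows of the interferon list (16 of 24) and in 8 of 11 windows of the list's called genes. The parts shown are from called genes with a match, with the matched bases in capitals on either strand.
ISG15 (chr1:1013364-1013419, plus strand): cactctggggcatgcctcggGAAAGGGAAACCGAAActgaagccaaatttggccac
IFIT1 (chr10:89392487-89392549, plus strand): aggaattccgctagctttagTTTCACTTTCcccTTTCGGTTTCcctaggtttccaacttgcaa
IFI27 (chr14:94110608-94110670, plus strand): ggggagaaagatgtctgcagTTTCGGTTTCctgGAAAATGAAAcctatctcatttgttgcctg
MX1 (chr21:41420549-41420598, plus strand): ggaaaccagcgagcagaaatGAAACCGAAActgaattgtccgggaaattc
IFI6 (chr1:27672256-27672368, minus strand): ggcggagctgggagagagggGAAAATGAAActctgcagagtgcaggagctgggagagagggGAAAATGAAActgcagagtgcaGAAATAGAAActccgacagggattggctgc

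ISG15 holds 2 overlapping matches and IFI6 3 separate ones. The windows of OAS1, RSAD2 and CMPK2 held no match to this pattern. Those of OAS1 and RSAD2 did hold GAAA repeats that lie closer together than the pattern allows, which the search did not count. No match says only that the pattern as searched is not within these 300 bases.

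Ligands and modulators of the TGF-β family changed in both directions, with 5 of 30 tested genes higher and 2 lower, beside 2.04% and 0.572% of all tested genes (median log2 0.11). GDF15, a stress-induced member of the family, rose from 405, 380 and 311 normalized counts in WT to 4116, 3174 and 4398 in HIF-1α R30E (log2 3.42 ± 0.25, adjusted p = 7.7e-10). The BMP antagonist gene NOG, noggin, was at 47.4 to 82.2 in WT and 285 to 603 in HIF-1α R30E (log2 2.80 ± 0.40). Both genes were several-fold above WT in every mutant library. LTBP3, which keeps latent TGF-β in the matrix, rose by 2.35 ± 0.25 on the log2 scale, while LTBP1, with the same role, fell by 1.82 ± 0.30 and the activin subunit gene INHBE fell by 2.21 ± 0.33. The remaining higher genes, LTBP2 and SMAD6, were not stable: without WT replicate 1 or HIF-1α R30E replicate 3 only 3 of the list's genes were called higher.

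Axon guidance genes had 7 of 48 tested genes higher and 2 lower, beside the same 2.04% and 0.572% (median log2 0.13). SEMA6B, a transmembrane semaphorin, had 177, 251 and 285 normalized counts in WT and 2121, 1663 and 2546 in HIF-1α R30E (log2 3.15 ± 0.26, adjusted p = 4.4e-09). SEMA3F, a secreted semaphorin, was at 1347 to 2483 and 5487 to 8873 (log2 1.87 ± 0.32). The netrin receptor gene UNC5A (log2 3.10), the semaphorin receptor gene PLXNA2 (1.67) and the repellent ligand gene SLIT2 (1.62) were higher in every leave-one-out fit too. SEMA6A, a paralog of SEMA6B, was lower, at 2265 to 2720 in WT and 562 to 1249 in HIF-1α R30E (log2 -1.44 ± 0.28), and without HIF-1α R30E replicate 1 it was at -1.18 and no longer called. The calls of the receptor genes PLXND1 and NRP1 and of the ephrin gene EFNA1 also depended on single libraries: without WT replicate 1 they stood at 1.17, 1.00 and -1.05, and none was called. Without HIF-1α R30E replicate 1, no axon guidance gene was called lower.

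In the matrix, 4 of 31 collagen chains were higher and none lower, beside 2.04% and 0.572% of all tested genes (median log2 0.46). COL6A1 and COL5A2 (log2 1.65 ± 0.24), a chain of fibrillar collagen V, were called in every leave-one-out fit. COL13A1 and COL4A5 were not, and 2 collagen chains remained higher without WT replicate 2 or HIF-1α R30E replicate 3. BGN was the 1 called gene of 9 tested proteoglycans. Of 18 genes of the MYC network and the cell-cycle inhibitors, CDKN1A and CDKN1C, the inhibitor p57, were higher. CDKN1C had 0 to 9.08 normalized counts in WT and 39.3 to 90.4 in HIF-1α R30E (log2 3.97 ± 0.71). The 25 genes of DNA replication and proliferation gave no call in either direction by edgeR's quasi-likelihood test, with changes from -0.56 to 0.37.

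The remaining lists had 3 calls or fewer in each direction, to be read beside 2.04% higher and 0.572% lower of all tested genes. Of 23 kinesin motors KIF26A and KIF17 were higher, and KIF26A alone was called in each fit without 1 library, with KIF17 at log2 1.82 to 2.02. In the Notch list, 1 of 18 genes was higher and 1 lower. MFNG, a glycosyltransferase that modifies Notch receptors, went from 3347, 3968 and 4073 normalized counts in WT to 1532, 1259 and 1493 in HIF-1α R30E (log2 -1.41 ± 0.19). The ligand gene DLL3 was the higher one (log2 4.66), and its call was lost without WT replicate 2, with the change still at 4.66. Among the drug efflux transporters ABCC3 was higher, at 1986 to 2495 in WT and 4677 to 6090 in HIF-1α R30E (log2 1.29 ± 0.17). Of the chemokines and cytokines, CXCL16 was higher (log2 1.55) and CXCL5 lower (-1.34). Without HIF-1α R30E replicate 3 they stood at 1.35 and -1.23 and were not called, and without WT replicate 2 CXCL16 stood at 1.36 and was not called. Of 24 genes of the unfolded protein and amino acid stress response, DDIT4, named above, was the 1 called. ATF4 and TRIB3 (log2 -0.99) passed the adjusted p and stood just inside the 2-fold limit, and 2 genes of that list were called lower in each fit without 1 library. In the epithelial list 2 of 20 genes were higher and 2 lower, among them MLPH (melanophilin), with 121 reads over the WT libraries and 2 over the HIF-1α R30E libraries, a ratio of 48.0 with a counting interval of 13.0 to 401 (95%, exact). No epithelial gene was called higher without WT replicate 1, and 1 was without WT replicate 3 or HIF-1α R30E replicate 3; 1 was called lower without WT replicate 3 or HIF-1α R30E replicate 2 or 3. None of 12 mesenchymal genes and none of 8 targets of the aryl hydrocarbon receptor, another partner of HIF-1β, was called by edgeR's quasi-likelihood test. Of the other bHLH-PAS genes besides HIF1A, NPAS1 and NPAS2 were higher (log2 1.63 and 1.06); without WT replicate 1, 2 or 3 or HIF-1α R30E replicate 3 only HIF1A was called in that list. Of 8 genes that the study names as responsive to HIF-1α or HIF-2α, GPRC5C and PLXNA2 were higher and none was lower. PGK1 and TGFA entered that list from earlier work, and the others were named from data of the study itself and are no independent evidence.

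**Figure D4:**
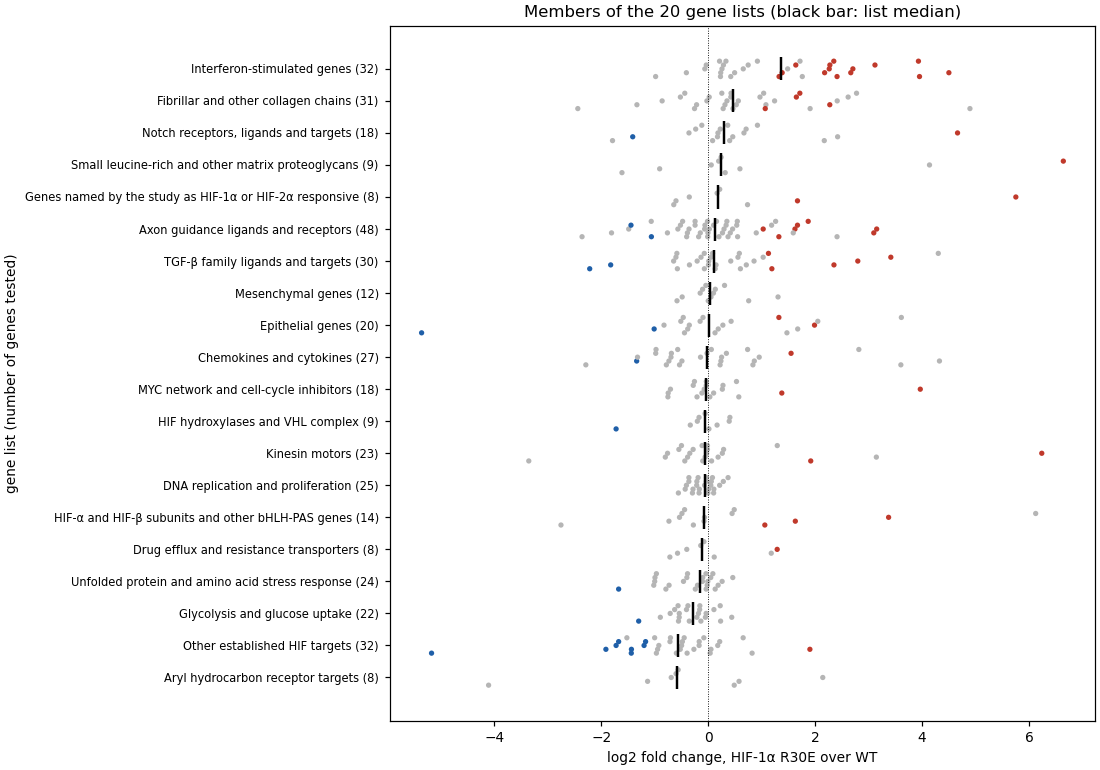
Log2 fold change of HIF-1α R30E over WT for each tested member of 20 gene lists, 1 point per gene, red where called higher, blue where called lower and grey otherwise, with a black bar at the list's median. Interferon-stimulated genes have the highest median (1.35), and the 2 lowest medians are those of the aryl hydrocarbon receptor targets (-0.58, 8 genes, none called) and of the established HIF targets (-0.56).

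Against the mean of HIF-1αDM, HIF-2α R27E and HIF-2αDM, which share the vector and the selection, 140 genes were higher in HIF-1α R30E and 46 lower, 0.598% and 0.196% of those tested. The counts depended on single libraries: 70 were higher without HIF-1α R30E replicate 3 and 30 were lower without HIF-1α R30E replicate 1. BGN led the named genes, with 22.9 to 58.6 normalized counts in HIF-1αDM, 46.4 to 55.9 in HIF-2α R27E and 21.9 to 40.0 in HIF-2αDM, all far under the 506 of the lowest HIF-1α R30E library (log2 4.02 ± 0.30, adjusted p = 3.4e-09). CDH11, a cadherin gene of mesenchymal cells, was at 115 to 131 in HIF-1α R30E, at 19.0 to 28.1 in WT and at 5.57 to 27.3 in the 9 libraries of the other inactive mutants (log2 3.26 ± 0.26). CDH4 (log2 3.63), KIF26A (2.69), LGALS9 (2.59), GDF15 (1.45) and SEMA6B (1.51) were also called. The opposite side held PTGES, at 434 to 963 in the other inactive mutants against 108 to 127 in HIF-1α R30E (log2 -2.46 ± 0.28, adjusted p = 4.0e-06). ARTN (log2 -2.29), FAM83F (-2.24), PLEKHG4B (-2.07) and SLITRK2 (-1.78) were lower as well.

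Of the 32 HIF targets, 3 were lower than in the other inactive mutants and 0 higher (median log2 -0.40), and they were NDRG1 (-2.02 ± 0.21, adjusted p = 1.2e-06), EGLN3 (-1.96 ± 0.22) and DDIT4 (-1.49 ± 0.25). The reference for NDRG1 and EGLN3 was itself raised in HIF-2α R27E, where NDRG1 was at 56287 to 84610 normalized counts and EGLN3 at 7611 to 17810. VEGFA stood at 12768 to 16704 in the other inactive mutants and at 6414 to 7968 in HIF-1α R30E, with a change just inside the 2-fold limit (log2 -0.98 ± 0.11, adjusted p = 4.1e-06), so it was not called. No glycolysis gene and no interferon-stimulated gene was called in this contrast by edgeR's quasi-likelihood test.

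By construct, HIF-1αDM differs from HIF-1α R30E in the surface that is mutated, dimerization in place of DNA binding, within the same protein. The HIF1A level was alike. Each form came from its own stable line, so the surface and other differences between the lines cannot be told apart. 75 genes were higher in HIF-1α R30E and 42 lower, 0.32% and 0.179% of those tested. The higher count fell to 34 without HIF-1α R30E replicate 3 and to 29, 38 and 48 without HIF-1αDM replicate 1, 2 and 3. The same 3 HIF targets were lower: EGLN3 at 4095, 7367 and 5008 normalized counts in HIF-1αDM (log2 -1.64), NDRG1 at 18982, 30896 and 17303 (-1.52) and DDIT4 at 25933, 33384 and 29568 (-1.53). PTGES (log2 -2.61), ARTN (-2.09) and LAMB3 (-1.10) were lower and BGN (3.89), CDH4 (5.13), NOG (2.76), CDH11 (2.62), SEMA6B (1.84), HERC5 (1.29) and GDF15 (1.27) were higher. VEGFA (log2 -0.89), CA12 (-1.03) and STC2 (-0.80) were not called. For CDKN1A (log2 -0.15), GPRC5C (-0.17) and COL5A2 (-0.37), all higher than WT in both lines, the 2 lines were not called different.

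Against functional HIF-1α, at a HIF1A level that was not called different, 77 genes were higher in HIF-1α R30E and 333 lower, 0.329% and 1.42% of those tested. The count of higher genes was 38 and 41 without HIF-1α replicate 1 and 2, and 44 and 47 without HIF-1α R30E replicate 1 and 3. Of the 32 HIF targets 20 were lower in HIF-1α R30E and 0 higher (median log2 -1.54), and of 22 glycolysis genes 11 were lower and 0 higher (median -1.10). The log2 difference was -3.50 for ENO2, -3.27 for NDRG1, -2.94 for EGLN3, -2.59 for PDK1, -2.54 for BNIP3 and -1.98 for VEGFA. The genes GDF15 (log2 1.63), SEMA6B (2.16), BGN (3.04) and TINAGL1 (1.24) were higher in HIF-1α R30E. ANGPTL4, which was higher than WT in HIF-1α R30E, was lower than in the HIF-1α line (log2 -1.79).

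Genes that differ between the line of functional HIF-1α and WT were also taken from batch 2, whose libraries share none with batch 1. Raised or lowered by HIF-1α or HIF-2α below means higher or lower in that line than in batch 2 WT. In a fit of the same kind to batch 2, 1121 of 28724 tested genes were higher (3.9%) and 139 lower (0.484%) in the HIF-1α line than in WT, and 1566 were higher in the HIF-2α line (5.45%). HIF1A was at 12761 to 13714 normalized counts in the HIF-1α line of batch 2 and at 261 to 313 in its WT, scaled within batch 2, so the transgene stood further above WT there than in batch 1. RNA extraction and library chemistry also differed between the batches. Both HIF lines carried the vector and selection of the HIF-1α R30E line, and WT cells carried neither. In these lists the HIF protein and the vector with its selection therefore cannot be told apart. The same holds for their overlap with the changes of HIF-1α R30E over WT.

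Of the 1115 batch 2 genes raised by HIF-1α that were tested in batch 1, 315 (28.3%) were higher in HIF-1α R30E and 14 lower, against 2.04% and 0.572% of all tested genes, and their median log2 change was 1.12. The same genes were also raised over the same WT libraries in the other inactive mutants. There 99 were higher in HIF-1αDM, 93 in HIF-2α R27E and 91 in HIF-2αDM, with medians of 0.78, 0.75 and 0.55. Over all tested genes only 106, 105 and 103 were called higher in those lines (0.453%, 0.449% and 0.44%). Of the 139 lowered by HIF-1α, 44 (31.7%) were lower in HIF-1α R30E and 0 higher (median -1.01). Without HIF-1α R30E replicate 3, 29 of them were called lower. Split by the other paralog, 93 of 388 genes raised by HIF-1α only (24.0%) were higher in HIF-1α R30E, as were 222 of 727 raised by both (30.5%) and 32 of 790 raised by HIF-2α only (4.05%). In the other direction, 315 of 476 genes called higher in HIF-1α R30E (66.2%) were called higher and 0 lower in HIF-1α of batch 2, beside 3.52% of the 22305 genes without a call in HIF-1α R30E. Against the other inactive mutants, which use no WT library, 98 of the 1115 (8.79%) were higher and 10 lower, beside 0.598% and 0.196% of all tested genes, and against HIF-1αDM 52 (4.66%) and 12, beside 0.32% and 0.179%. Against functional HIF-1α of batch 1, 228 of the 1115 (20.4%) were lower in HIF-1α R30E and 16 higher, beside 1.42% and 0.329%.

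The HIF target and glycolysis genes did not follow the rest of that set. Of their 54 genes, 23 were raised by HIF-1α in batch 2, and of these 1 was higher in HIF-1α R30E, 2 were lower, and the median log2 change was -0.35. Of the 1092 raised genes outside the 2 lists, 314 (28.8%) were higher and the median was 1.16. BGN was raised in HIF-1α of batch 2 (log2 1.92), as were CDH4 (2.54), LGALS9 (8.35), SYNGR1 (3.55) and GDF15 (2.12). SEMA6B (log2 0.42) and TINAGL1 (-0.09) were not called there. Among the decreases, SLN (log2 -2.44) and PAPPA2 (-1.84) were lower in HIF-1α of batch 2, SLC38A5 was higher (4.38), and PTGES (-0.40), ARTN (0.12) and PLEKHG4B (-0.09) were not called.

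**Figure D5:**
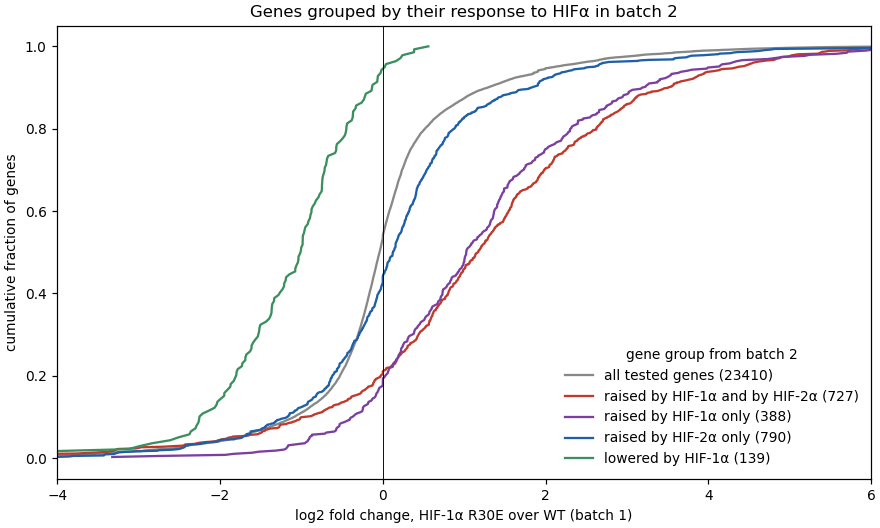
Cumulative fraction of genes (vertical axis) by log2 fold change of HIF-1α R30E over WT in batch 1 (horizontal axis), 1 line per group of genes. The groups were defined in batch 2 by comparing a HIF-α line with WT. Genes raised by both HIF-α proteins (median 1.17) and by HIF-1α only (1.03) lie to the right of all tested genes (-0.04), those raised by HIF-2α only (0.13) close to them, and those lowered by HIF-1α (-1.01) to the left.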

How the data were processed

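RNA was measured in 786-O lines as poly(A)-selected RNA-seq. According to the study's methods and the labels, the authors aligned reads to hg38 with STAR and counted uniquely aligned reads per GENCODE v32 gene with HTSeq in union mode, without strand. The submitters' processing notes name STAR 2.7, HTSeq 0.11.1 and SAMtools 1.9. The deposited files hold raw read counts per gene with no normalization, 1 file per library. Groups came from the labels.

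The 27 batch 1 libraries were fitted together by group with edgeR 4.0.16 in R 4.3.3 (TMM factors, quasi-likelihood test, 18 residual degrees of freedom, Benjamini-Hochberg adjustment over the 23410 genes whose normalized counts averaged 0.5 or more), and the 15 batch 2 libraries in a second fit. Calls needed an adjusted p of at most 0.01 and a 2-fold change. Comparisons of HIF-1α R30E were made with WT, with the mean of the other inactive mutants, with HIF-1αDM and with HIF-1α. The SE is the log2 change divided by the square root of F. With 3 libraries a group the precision is set by their spread, and count intervals cover counting error only. Positions and biotypes were from GENCODE v44 on hg38, which held 23316 of the tested genes. Promoter windows were from RefSeq. The fits were tested on simulated data. Alternatives were DESeq2 1.42.0, median-ratio size factors, no filter on low counts, the replicate number as a block, only the groups compared, and leaving out each library.

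Named genes were HIF1A, EPAS1 and ARNT; among called genes averaging 50 or more normalized counts whose groups did not overlap, the 12 largest changes, the 8 most abundant and the 6 largest changes against the other inactive mutants in each direction; called members of the lists; and 8 genes the study names. List members named without a call were chosen after their values were seen. The members and lists were chosen with earlier results of these data known. Some list members are counted but not reported here by name.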

Additional observations from a re-analysis of the deposited data

Results flagged for a closer look

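In 5 named genes the change over WT had opposite signs in the HIF-1α R30E line and in the line of functional HIF-1α, each called, and the difference between the lines was itself called by edgeR's quasi-likelihood test, which uses no WT library. ENO2 was at log2 -1.30 in HIF-1α R30E and 2.20 in HIF-1α, a difference of -3.50 ± 0.23 (SE; adjusted p = 5.7e-11). NDRG1 was at -1.91 and 1.36, a difference of -3.27 ± 0.25 (adjusted p = 8.7e-10). EGLN3 was at -1.72 and 1.21, a difference of -2.94 ± 0.25 (adjusted p = 9.4e-09). SLC38A5 was at -3.38 and 4.69, a difference of -8.07 ± 0.44 (adjusted p = 1.8e-12). MLPH was at -5.36 and 4.43, a difference of -9.79 ± 0.60 (adjusted p = 5.7e-11), of which the HIF-1α R30E side rests on 2 reads. The 2 comparisons with WT share its 3 libraries. In the other inactive mutants ENO2 stood at -0.76, -0.53 and -0.59, SLC38A5 at -1.33, -3.23 and -3.26 and MLPH at -2.71, -5.46 and -6.26 against the same WT libraries (HIF-1αDM, HIF-2α R27E and HIF-2αDM in that order). MLPH and SLC38A5 were thus low in mutants of both paralogs, while NDRG1 was at -0.39, 1.27 and -0.54 and EGLN3 at -0.08, 1.03 and -0.24 there.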

How the results depend on the processing

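Counts against WT were steady: 477 higher and 134 lower stayed within 1.5 times under every alternative except the replicate block, which gave 203 lower. The counts against the other lines moved more. DESeq2 gave 72 genes lower than the other inactive mutants, 140 higher and 69 lower than HIF-1αDM and 123 higher than HIF-1α. Without a filter on low counts these were 82, 133, 85 and 116. With only the groups compared in the fit, 27 were lower than HIF-1αDM. Leaving out 1 library at a time gave 70 to 164 genes higher and 30 to 55 lower than the other inactive mutants, 29 to 58 higher than HIF-1αDM and 38 to 90 higher than HIF-1α, beside 343 to 443 higher and 98 to 141 lower than WT. Of the 477 and 134 calls, 293 and 70 held in all 6 fits that leave out a WT or HIF-1α R30E library. Of the named genes, ESRP2 and KLF6 lost the call under DESeq2 and under median-ratio factors, KIF17 without the filter, and 10 with only the groups compared. CPE and PTPRN, not called, changed sign between leave-one-out fits (log2 -0.31 to 0.50 and -2.43 to 1.26). HIF1A kept its call under every alternative.

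As to pairing by replicate number, the deviations of same-numbered WT and HIF-1α R30E libraries correlated at 0.0687, 0.198 and 0.474. Their mean was 0.247, beside -0.124 for differently numbered libraries, and not every library correlated best with its own number. The main fit used no block, as the study's methods name none. Whether libraries of one number share an effect of handling was not tested. The replicate block gave 639 genes higher and 203 lower than WT, which held 476 of the 477 and all 134 calls. It gave 212 higher and 82 lower than the other inactive mutants, 143 and 84 against HIF-1αDM and 138 higher than HIF-1α.

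Depth limits the genes with few WT reads, whose fold changes are imprecise. Vector and selection, absent from WT, were not tested apart from the mutant protein there. Between the lines with a vector, the transgene was not tested apart from other differences between the lines. The study calls the 3 libraries of a line biological replicates, and neither its methods nor the labels say whether they came from separate cultures. Uneven transgene expression between cells cannot be seen in bulk RNA, where fewer cells with a transcript and less of it per cell cannot be told apart.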
